A study of Mus musculus with 6 samples.

Results

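Transcripts of 9 receptors of the TNF receptor superfamily and of the adaptor Traf1 were examined in mouse Th9 cells, the interleukin 9-secreting class of CD4 helper cells. The genes were Tnfrsf1a, Tnfrsf1b, Tnfrsf4, Tnfrsf8, Tnfrsf9, Tnfrsf14, Tnfrsf18, Tnfrsf25, Cd27 and Traf1, chosen by name as costimulatory receptors of the family and their adaptor. Earlier results of these data were known when they were chosen. All 10 were among the 21233 genes of the count table, and all 10 passed the filter on low counts that left 13255 genes for testing. The 6 libraries came from 3 samples of Th9 cells labelled as controls and 3 labelled as sorafenib-treated; the drug inhibits RAF kinases and a number of receptor tyrosine kinases. Mouse strain, sorafenib dose and time, and the culture conditions shared by both groups are not in the labels.

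Receptors of this family are bound by trimeric ligands of the TNF superfamily and carry no enzyme of their own. Most of the costimulatory members recruit TRAF adaptors to their cytoplasmic tails, which leads to NF-kappaB and kinase signalling and to survival and cytokine production in activated T cells. A minority, Tnfrsf1a and Tnfrsf25 among the genes here, carry a death domain. In T cells Tnfrsf9, Tnfrsf8, Tnfrsf4 and Tnfrsf18 are known to be induced or raised by antigen receptor stimulation, and Traf1 is a known NF-kappaB target. Tnfrsf4, Tnfrsf18 and Tnfrsf25 are receptors whose stimulation is known to raise interleukin 9 production in T helper cells.

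Total counts lay between 36981476 and 38126521 per library. One control library stood apart from the other libraries of its group. Between control replicate 2 and the others of its group, the chi-square per degree of freedom over genes was 51.9 and 63.9, against 15.7 between control replicates 1 and 3 and 6.2 to 13.7 among the sorafenib libraries, where 1 would be counting noise alone. Its scaling factor was 0.922, against 0.993 to 1.03 in the other libraries. Values without it are given beside several of the results that it moves. Whether the numbered replicates were separate cultures or animals is not stated, and the p-values then reflect no more than the spread among these samples, which may be technical. In bulk RNA, fewer cells of a kind that express a gene and less transcript per cell cannot be told apart.

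Sorafenib cells had less transcript of Tnfrsf8, Tnfrsf9, Traf1 and Tnfrsf18 and more of Tnfrsf1b. Tnfrsf8 and Tnfrsf9, the receptors CD30 and CD137, each fell 2.5-fold. Traf1 fell 1.55-fold and Tnfrsf18 fell 1.27-fold, while Tnfrsf1b rose 1.23-fold. The other 5 receptors, Tnfrsf1a, Tnfrsf4, Tnfrsf14, Tnfrsf25 and Cd27, did not pass the test, with log2 fold changes between -0.18 and 0.12. Thus 5 of the 10 genes were called at an adjusted p under 0.05 (edgeR's quasi-likelihood test, Benjamini-Hochberg adjusted over all tested genes), where 17.9% of all tested genes were. Called lower were 4 of the 10, against 9.43% of all tested genes, and 1 of the 10 was called higher, against 8.51%. The 10 genes were chosen with earlier results of these data known, so these counts describe them and do not test the family. The shares of all tested genes depended on single libraries. Without control replicate 2, 4 and 1 of the 10 were again called lower and higher, against 16.8% and 15% of all tested genes (31.8% in either direction). Without control replicate 3 or sorafenib replicate 2 the counts among the 10 were also 4 and 1, against 11.7% and 11.4% in either direction, and without sorafenib replicate 1 or 3 they were 3 and 0, against 9.51% and 9.15%. The control and sorafenib libraries did not overlap in CPM (counts relative to the TMM-adjusted library total) for 7 of the 10, against 36.3% of tested genes. Which genes these were depended on the scaling, since on FPKM Tnfrsf4 and Tnfrsf1a overlapped and Tnfrsf25 did not. The median log2 fold change of the 10 genes was -0.14, and that of all tested genes was -0.01. With scaling by total counts alone the genes called over the whole table split into 1496 higher and 826 lower in place of 1128 and 1250, and 4 and 1 of the 10 genes were again called lower and higher.

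**Figure D1:**
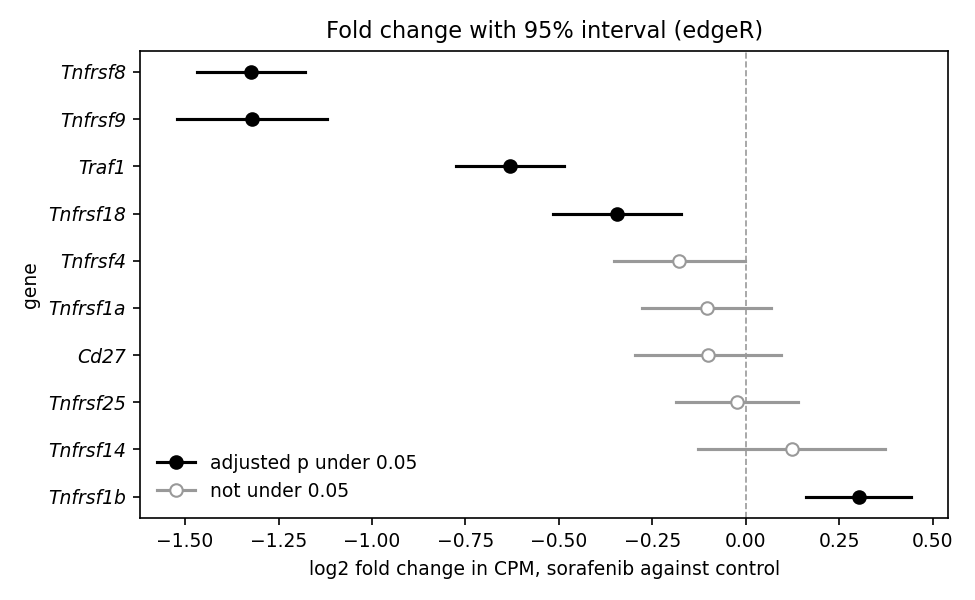
Log2 fold change in TMM-scaled CPM (horizontal axis, sorafenib against control, 3 libraries each) for the 9 receptors and Traf1, as edgeR estimates with 95% intervals; filled black points have an adjusted p under 0.05. Tnfrsf8 and Tnfrsf9 lie together at -1.32, Traf1 and Tnfrsf18 lie between them and 0, and Tnfrsf1b is the one called gene above 0.

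Levels can be compared between genes only per length, on the deposited FPKM scale. In control cells Tnfrsf9 had the highest level of the 10 with 484 ± 17.2 FPKM (SD, n = 3), followed by Tnfrsf18 with 433 ± 15.5 FPKM and Tnfrsf4 with 371 ± 15.01 FPKM. Tnfrsf8 followed with 114 ± 6.7 FPKM and Traf1 with 57.9 ± 2.72 FPKM. The other 5 receptors had mean levels of 10.8 to 23.7 FPKM. In control the ranges of neighbours in this order overlapped only between Tnfrsf1b and Tnfrsf25 and between Tnfrsf1a and Tnfrsf14. In sorafenib cells Tnfrsf18 with 360 ± 19.6 FPKM and Tnfrsf4 with 346 ± 12.1 FPKM led, and their ranges overlapped. Tnfrsf9, with 205 ± 8.3 FPKM, lay below both of them in each of the 3 sorafenib libraries. Tnfrsf1a and Tnfrsf14 overlapped at the low end of the order in both groups.

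**Figure D2:**
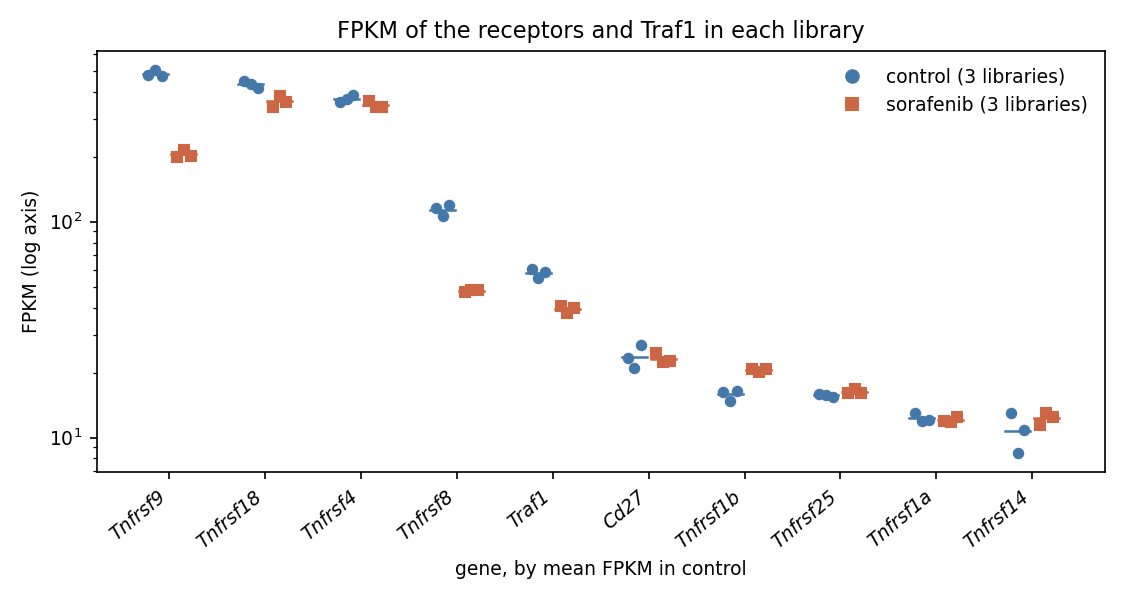
FPKM (log axis) of each gene in each of the 6 libraries, control as circles and sorafenib as squares, with a line at each group's mean; genes are ordered by their mean in control. Tnfrsf9 leads in control at 472 to 504 FPKM and lies below Tnfrsf18 and Tnfrsf4 in sorafenib at 199 to 214 FPKM, and among the 5 receptors at the right Tnfrsf1b is the one called gene, at 14.8 to 16.4 FPKM in control and 20.2 to 20.9 FPKM in sorafenib.

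Tnfrsf9 encodes CD137, a costimulatory receptor of activated T cells that signals through TRAF1 and TRAF2. Its TMM-scaled level was 1110.15, 1284 and 1117 CPM in control replicates 1 to 3 and 459, 488 and 459 CPM in sorafenib replicates 1 to 3. Every control library was above every sorafenib library by far more than the spread within either group, and control replicate 2 was the highest. The log2 fold change was -1.32 ± 0.09 (SE, 95% interval -1.52 to -1.12, adjusted p = 1.25e-05 by edgeR). Without control replicate 2 it was -1.25. Of the 13255 tested genes, 233 had a lower log2 fold change.

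Tnfrsf8 encodes CD30, a receptor of activated T and B cells that also binds TRAF adaptors. It had 399, 403 and 421 CPM in control replicates 1 to 3 and 161, 163 and 165 CPM in sorafenib replicates 1 to 3. The groups lay far apart and the sorafenib libraries were nearly level. The log2 fold change was -1.32 ± 0.07 (SE, 95% interval -1.47 to -1.18, adjusted p = 2.30e-06 by edgeR), with 232 tested genes lower. Tnfrsf8 and Tnfrsf9 thus stood next to each other in the ranking of all tested genes by fold change.

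The promoter windows of these receptors are shown because Tnfrsf8 and Tnfrsf9 fell together, and those of Traf1, which also fell, and Tnfrsf1b, which rose, are set beside them. Windows are from RefSeq on build GRCm38.p6, which is not the GRCm39 build named for the counts, and span 250 bases before to 50 bases after an annotated start. The 10 genes matched 12 windows, since Tnfrsf9 and Tnfrsf25 have a pair of starts each. Each sequence below is the 250 bases before a start, 5′ to 3′ on the gene's strand, with matches to the searched motifs in capitals.
Tnfrsf8 (chr4:145315165-145315414, minus strand): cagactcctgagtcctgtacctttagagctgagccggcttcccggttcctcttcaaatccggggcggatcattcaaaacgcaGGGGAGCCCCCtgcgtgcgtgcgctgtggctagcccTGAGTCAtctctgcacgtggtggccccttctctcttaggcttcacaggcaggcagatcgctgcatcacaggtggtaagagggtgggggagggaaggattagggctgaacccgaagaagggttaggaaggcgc
Tnfrsf9 upstream start (chr4:150919905-150920154, plus strand): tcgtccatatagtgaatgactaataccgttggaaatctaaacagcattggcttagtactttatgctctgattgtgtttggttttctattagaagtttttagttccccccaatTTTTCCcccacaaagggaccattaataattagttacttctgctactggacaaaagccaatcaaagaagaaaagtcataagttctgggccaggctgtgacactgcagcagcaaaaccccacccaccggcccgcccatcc
Traf1 (chr2:34961773-34962022, minus strand): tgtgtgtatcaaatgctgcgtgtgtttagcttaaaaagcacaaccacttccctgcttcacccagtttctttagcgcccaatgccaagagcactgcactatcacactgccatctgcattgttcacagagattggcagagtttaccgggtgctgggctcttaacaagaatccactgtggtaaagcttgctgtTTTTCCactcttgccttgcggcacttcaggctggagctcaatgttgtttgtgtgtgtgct
Tnfrsf1b (chr4:145246871-145247120, minus strand): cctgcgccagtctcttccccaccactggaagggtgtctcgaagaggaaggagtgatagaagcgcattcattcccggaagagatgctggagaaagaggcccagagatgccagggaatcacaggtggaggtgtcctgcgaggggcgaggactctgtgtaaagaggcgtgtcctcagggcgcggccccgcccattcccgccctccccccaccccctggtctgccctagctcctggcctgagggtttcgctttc
The window of the second Tnfrsf9 start is in part an annotated exon, so only its matches are shown, each with 6 bases on either side.
Tnfrsf9 second start, NF-kappaB match (chr4:150927950-150927972, plus strand): gcagctGGGGATTTCCCaggagg
Tnfrsf9 second start, AP-1 match (chr4:150927978-150927996, plus strand): ctcagtTGAGTCAcaggtc

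The motifs were searched on both strands of each 300-base window and were chosen with the fold changes of these genes known. The NF-kappaB consensus was found in 3 of the 12 windows, those of Tnfrsf8, the second start of Tnfrsf9 and the second start of Tnfrsf25, and in 8.46% of all 32851 windows. In Tnfrsf8 and Tnfrsf9 the match is a run of 11 bases that holds a pair of overlapping matches shifted by 1 base, beginning 168 and 43 bases before the start. The AP-1 motif TGANTCA was found in 2 of the 12 windows, again Tnfrsf8 and the second start of Tnfrsf9, and in 7.81% of all windows, with no overlap with the NF-kappaB match. It begins 132 and 15 bases before the start, as TGAGTCA in both. Both motifs together were in these 2 of the 12 windows and in 0.539% of all windows. The NFAT core GGAAAA was in 6 of the 12 windows and in 23.4% of all, and TGACGTCA, the cyclic AMP response element, was in 0 of the 12 and in 1.79% of all. In the window of Traf1 the sole match was to GGAAAA, and in that of Tnfrsf1b no searched motif was found. A match describes letters in a window and says nothing of which factor binds there.

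Traf1 encodes an adaptor that binds the tails of several of these receptors together with TRAF2 and lacks the RING domain of other TRAF proteins. Its level was 245, 244 and 240.5 CPM in control replicates 1 to 3 and 164, 149 and 158 CPM in sorafenib replicates 1 to 3. All control libraries were above all sorafenib libraries, and the control libraries were the tighter group. The log2 fold change was -0.63 ± 0.07 (SE, 95% interval -0.78 to -0.49, adjusted p = 0.000142 by edgeR). Per length Tnfrsf9 exceeded Traf1 by a ratio of 8.38 ± 0.682 in control and 5.21 ± 0.429 in sorafenib cells (FPKM ratio, SD, n = 3), and the ranges of this ratio did not overlap, since Tnfrsf9 fell by more.

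Tnfrsf18 and Tnfrsf4, the costimulatory receptors GITR and OX40, are adjacent protein-coding genes on mouse chromosome 4. Tnfrsf18 had 456, 487 and 432 CPM in control replicates 1 to 3 and 344, 379 and 360.2 CPM in sorafenib replicates 1 to 3. The groups did not overlap, with a gap between the lowest control and the highest sorafenib library about as wide as the spread within a group. The log2 fold change of Tnfrsf18 was -0.34 ± 0.08 (SE, 95% interval -0.52 to -0.17, adjusted p = 0.0115 by edgeR). This call was lost without sorafenib replicate 1 (adjusted p = 0.0782 by edgeR), without sorafenib replicate 3 (adjusted p = 0.0746) and on unfiltered FPKM (adjusted p = 0.0609 by limma), with the direction kept. Without control replicate 2 the log2 fold change of Tnfrsf18 was -0.30 (adjusted p = 0.000464 by edgeR). Tnfrsf4 had 454, 515 and 499.8 CPM in control replicates 1 to 3 and 453, 422 and 423 CPM in sorafenib replicates 1 to 3. Control replicate 1 and sorafenib replicate 1 were nearly equal, although the groups did not overlap in CPM. On FPKM the groups overlapped, with 357 FPKM in control replicate 1 and 360 FPKM in sorafenib replicate 1. Tnfrsf4 did not pass the test (log2 fold change -0.18, 95% interval -0.35 to -0.0032, adjusted p = 0.154 by edgeR), nor under any of the 14 alternatives (adjusted p of 0.0679 to 0.409). Its log2 fold change without control replicate 2 was -0.14 (adjusted p = 0.0746 by edgeR). Tnfrsf18 over Tnfrsf4 was 1.17 ± 0.0885 in control and 1.04 ± 0.0883 in sorafenib cells (FPKM ratio, SD, n = 3), and these ranges overlapped, so a difference in response between the neighbours was within the spread between libraries.

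The receptors for TNF itself are Tnfrsf1a, which has a death domain and is widely expressed, and Tnfrsf1b, which binds TRAF2 and is prominent on activated and regulatory T cells. Tnfrsf1b had 79.6, 79.3 and 81.5 CPM in control replicates 1 to 3 and 101, 96.2 and 99.4 CPM in sorafenib replicates 1 to 3. Every sorafenib library was higher, and both groups were tight. The log2 fold change of Tnfrsf1b was 0.30 ± 0.06 (SE, 95% interval 0.16 to 0.44, adjusted p = 0.00831 by edgeR). The call was lost without sorafenib replicate 1 (adjusted p = 0.0522) or 3 (adjusted p = 0.0619), with a log2 fold change of 0.29 and 0.30. Tnfrsf1a had 27.8, 27.8 and 26.2 CPM in control replicates 1 to 3 and 25.3, 24.8 and 26 CPM in sorafenib replicates 1 to 3. Its groups lay next to each other without overlap in CPM. On FPKM they overlapped, at 11.88 to 13 in control and 11.86 to 12.39 in sorafenib libraries. Tnfrsf1a did not pass the test (log2 fold change -0.10, 95% interval -0.28 to 0.07, adjusted p = 0.406 by edgeR). Tnfrsf1b over Tnfrsf1a was 1.29 ± 0.062 in control and 1.7 ± 0.0345 in sorafenib cells (FPKM ratio, SD, n = 3), with ranges that did not overlap.

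Tnfrsf8, which fell, lies next to Tnfrsf1b, the gene that rose. Of the 10 genes 7 lie on mouse chromosome 4, 2 on chromosome 6 (Tnfrsf1a and Cd27) and Traf1 on chromosome 2, in the GRCm38 annotation. Tnfrsf8 and Tnfrsf1b are adjacent protein-coding genes on the same strand of chromosome 4. Tnfrsf8 over Tnfrsf1b went from 7.16 ± 0.104 in control to 2.32 ± 0.0671 in sorafenib cells (FPKM ratio, SD, n = 3). No strand setting is stated for the counting, and 3 of the genes overlap another gene of the table on the opposite strand: Tnfrsf9 overlaps Camta1, Tnfrsf18 overlaps Gm16008 and Cd27 overlaps Vamp1. These partners were low, with control means of 8.62 CPM for Camta1, 3.82 CPM for Gm16008 and 13.5 CPM for Vamp1. Reads from the shared stretches cannot be told apart. Camta1 and Vamp1 were also called lower, by log2 fold changes of -0.66 and -0.58 (adjusted p = 0.0252 and 0.0354 by edgeR), calls lost in several alternatives (adjusted p up to 0.26).

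Tnfrsf14, Tnfrsf25 and Cd27 did not pass the test. Tnfrsf14 encodes HVEM, which binds LIGHT and the inhibitory receptor BTLA. It had 63.7, 45.4 and 54.01 CPM in control replicates 1 to 3 and 55.4, 62.5 and 59.7 CPM in sorafenib replicates 1 to 3. The control libraries spread widely, control replicate 2 was the lowest of all 6, and the groups overlapped. Its log2 fold change was 0.12 (95% interval -0.13 to 0.37, adjusted p = 0.514 by edgeR), and 0.01 without control replicate 2. Tnfrsf25 encodes the death domain receptor DR3, the receptor for TL1A. It had 40.02, 43.4 and 39.7 CPM in control replicates 1 to 3 and 40.1, 41.1 and 39.99 CPM in sorafenib replicates 1 to 3, which lay inside the control range. On FPKM every sorafenib library of Tnfrsf25 was above every control library, at 16.1 to 16.7 against 15.5 to 15.9 FPKM. Its log2 fold change was -0.02 (95% interval -0.19 to 0.14, adjusted p = 0.874 by edgeR), and the sign turned with total counts only, on FPKM and without control replicate 2. Cd27 encodes a receptor that supports survival of naive and memory T cells. It had 41.9, 41.3 and 48.8 CPM in control replicates 1 to 3 and 43.7, 39.4 and 39.96 CPM in sorafenib replicates 1 to 3. The groups overlapped, with control replicate 3 the highest, and the log2 fold change was -0.10 (95% interval -0.30 to 0.09, adjusted p = 0.486 by edgeR). For Cd27 it was -0.14 without control replicate 2 (adjusted p = 0.168 by edgeR). For these 3 receptors the intervals leave room for a change of either sign.

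The makeup of the receptor transcripts differed between the groups. Summed over the 9 receptors, the level was 1477, 1487 and 1476 FPKM in control replicates 1 to 3 and 1032, 1066 and 1032 FPKM in sorafenib replicates 1 to 3, so every sorafenib library was lower. Tnfrsf9 made up 32.7% ± 1.02 of this sum in control and 19.6% ± 0.427 in sorafenib cells (SD, n = 3). Tnfrsf8 made up 7.67% ± 0.484 and 4.59% ± 0.0925. Tnfrsf4 went from 25.1% ± 1.04 to 33.2% ± 1.56 and Tnfrsf18 from 29.2% ± 1.03 to 34.5% ± 1.35. These are shares of a sum: that of Tnfrsf18 was larger although its own level was lower, because Tnfrsf9 and Tnfrsf8 took less of the sum.

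**Figure D3:**
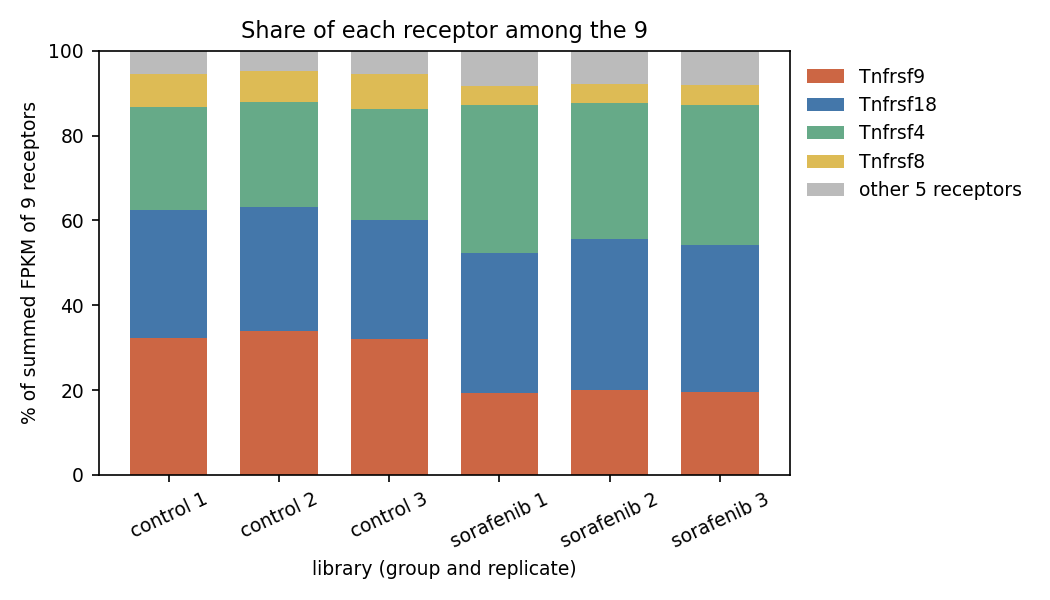
Share of each receptor in the summed FPKM of the 9 receptors (vertical axis, percent), 1 bar per library. Tnfrsf9 takes 32 to 33.9% in the control libraries and 19.3 to 20.1% in the sorafenib libraries, with the groups apart.

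Ligands that bind these receptors were measured in the same cells, except Tnfsf18, the ligand of Tnfrsf18, which was not in the count table. Of 14 tested ligand genes of the family, 5 rose and 2 fell, against 8.51% and 9.43% of all tested genes. Their median log2 fold change was 0.21, against -0.01 for all tested genes. The number that rose was 3 without control replicate 3 or without any 1 of the sorafenib replicates. In those fits 4.12% to 5.71% of all tested genes were called higher. Tnfsf4, the ligand of Tnfrsf4, rose 2-fold, from 26.7 ± 4.41 to 53.5 ± 6.99 CPM (SD, n = 3, adjusted p = 0.000537 by edgeR). Cd70, the ligand of Cd27, rose from a low level, 0.174 ± 0.0663 to 1.23 ± 0.411 CPM, with 4 to 9 counts in each control and 29 to 59 counts in each sorafenib library (adjusted p = 0.00234 by edgeR). Lta, which binds both TNF receptors, fell 1.45-fold, from 417 ± 22.9 to 288 ± 5.85 CPM (adjusted p = 0.000681 by edgeR). Tnfsf10, the gene of TRAIL, and Cd40lg, the CD40 ligand, completed the 5 that rose, by 1.66-fold and 1.32-fold; Cd40lg missed the threshold in 6 of the 14 alternatives (largest adjusted p = 0.19). Fasl, the ligand of the death receptor Fas, fell 7.24-fold, from 5.37 ± 0.246 to 0.739 ± 0.112 CPM.

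The ligands of Tnfrsf9 and Tnfrsf8, the receptors that fell most, were not among those called lower. Tnfsf9, the ligand of Tnfrsf9, was at 9.91 ± 1.23 CPM in control cells and at 9.88 ± 0.544 CPM with sorafenib (adjusted p = 0.991 by edgeR). Tnfsf8, the ligand of Tnfrsf8, was 1.21-fold higher, at 250.1 ± 14.5 CPM in control cells against 302 ± 17.7 CPM (adjusted p = 0.0299 by edgeR). Tnfsf8 no longer passed when control replicate 3 or any sorafenib replicate was left out, nor on unfiltered FPKM (largest adjusted p = 0.149). Tnf had 47.9 ± 4.17 and 46.9 ± 3.86 CPM (adjusted p = 0.862 by edgeR) and Tnfsf14, the ligand LIGHT, had 70.03 ± 8.11 and 61.7 ± 2.44 CPM (adjusted p = 0.199 by edgeR). Tnfsf15, the gene of TL1A, was low, at 0.603 ± 0.233 CPM in control cells and 1.27 ± 0.214 CPM with sorafenib (adjusted p = 0.0706 by edgeR). It was called higher without control replicate 1 (adjusted p = 0.0403) and by DESeq2 (adjusted p = 0.0474).

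Receptors of the superfamily beyond these 9 moved both ways. Of 15 tested, 5 rose and 3 fell, with a median log2 fold change of 0.41. Over all tested genes 8.51% were called higher and 9.43% lower. The 3 that fell were Tnfrsf23, Tnfrsf22 and Tnfrsf26, of which Tnfrsf22 and Tnfrsf23 are known as decoy receptors for TRAIL in the mouse. Tnfrsf23 fell 2.19-fold, from 29.4 ± 1.96 to 13.5 ± 0.635 CPM (adjusted p = 2.83e-05 by edgeR). Tnfrsf22 had a log2 fold change of -0.46 and Tnfrsf26 one of -0.32, and they are named here after their values were seen. These 3 genes are close relatives, so reads may have been shared among them. The call of Tnfrsf26 was lost without sorafenib replicate 1 or 3 (adjusted p of 0.0621 in both) and on unfiltered FPKM, and that of Tnfrsf22 on unfiltered FPKM. Tnfrsf10b, the signalling receptor for TRAIL, rose 1.37-fold, from 51.2 ± 4.22 to 70.3 ± 2.95 CPM (adjusted p = 0.00315 by edgeR). The death receptor Fas rose 1.56-fold and Relt 1.33-fold, the latter not called without control replicate 3 or sorafenib replicate 2 or 3 nor on unfiltered FPKM (largest adjusted p = 0.108).

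Cd40 and Tnfrsf13c, receptors of B cells, rose from low levels. Cd40 went from 2.2 ± 0.432 to 5.41 ± 1.08 CPM and Tnfrsf13c from 0.854 ± 0.165 to 2.41 ± 0.168 CPM (adjusted p = 0.00189 and 0.00262 by edgeR). Tnfrsf13b, also known as a receptor of B cells, was not called, at 137 ± 5.41 and 134 ± 2.24 CPM (SD, n = 3). Among markers of B cells 5 of 6 tested were called higher, against 8.51% of all tested genes. The summed level of the 7 in the table was 7.43 to 16.3 CPM in control and 29.5 to 32.7 CPM in sorafenib libraries. The part of B cells in the rises of Cd40 and Tnfrsf13c was not tested.

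Among TRAF adaptors, ubiquitin ligases and their regulators, 4 rose and 1 fell of 19 tested, against 8.51% and 9.43% of all tested genes. Their median log2 fold change was 0.03. The number that rose was 8 without control replicate 2, 2 without control replicate 3 and 1 without sorafenib replicate 1 or 3. The share of all tested genes called higher moved as well, to 15%, 5.71%, 4.26% and 4.12% in these fits, in this order. Traf5, which binds Tnfrsf4, Cd27 and Tnfrsf8, rose 1.74-fold, from 5.52 ± 0.924 to 9.6 ± 0.647 CPM (adjusted p = 0.00367 by edgeR). Traf3, an inhibitor of the alternative NF-kappaB pathway, rose 1.26-fold, but it missed the threshold when control replicate 3 or any sorafenib replicate was left out and on unfiltered FPKM (largest adjusted p = 0.133). Tank, which binds TRAF proteins, rose 1.21-fold, not called in 5 of the 14 alternatives (largest adjusted p = 0.141). The ubiquitin-binding inhibitors moved apart, with Tnip1 rising 1.31-fold and Tnip2 falling 1.3-fold. The call of Tnip1 was lost without sorafenib replicate 1 or 3 (adjusted p of 0.0622 and 0.0604) and that of Tnip2 was lost on unfiltered FPKM (adjusted p = 0.112).

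Of 19 NF-kappaB subunits, inhibitors and kinases, 6 rose and 1 fell, against 8.51% and 9.43% of all tested genes. Their median log2 fold change was 0.04. The 1 that fell was the atypical inhibitor Bcl3, by 1.3-fold, a call that did not hold with total counts only, on FPKM, or with control replicate 3 or any sorafenib replicate left out (largest adjusted p = 0.267). Without control replicate 2 the number that fell was 3, with 16.8% of all tested genes called lower. Nfkb2, the subunit of the alternative pathway, rose 1.58-fold, from 205 ± 4.11 to 322 ± 25.6 CPM (adjusted p = 0.000262 by edgeR). Rel rose 1.52-fold, and the inhibitors Nfkbia and Nfkbie, themselves known NF-kappaB targets, rose 1.47-fold and 1.67-fold. Nfkb1, and Tnfaip3 and Birc3 among the regulators above, were not called in the main setting. Control and sorafenib means were 897 ± 52.2 and 809 ± 21.1 CPM for Nfkb1 (SD, n = 3). They were 484 ± 42.3 and 468 ± 58.3 CPM for Tnfaip3, and 152.3 ± 4.25 and 151.5 ± 1.04 CPM for Birc3. The part of NF-kappaB in the fall of Traf1 was not tested.

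Siva1, which binds the tail of CD27, rose 1.42-fold but missed the threshold when sorafenib replicate 1 or 3 was left out (adjusted p of 0.0516 and 0.0529). Tradd, the adaptor of Tnfrsf1a and Tnfrsf25, fell 1.32-fold, from 25.5 ± 1.72 to 19.3 ± 2.08 CPM. Tradd missed the threshold when control replicate 1 or sorafenib replicate 1 or 3 was left out, and also by total counts alone or unfiltered FPKM (largest adjusted p = 0.132). Of 5 tested genes of receptor shedding, 2 rose, the protease gene Adam10 1.16-fold and its relative's cofactor Rhbdf2 1.23-fold. Over all tested genes 8.51% were called higher. Adam10 missed the threshold in 8 and Rhbdf2 in 5 of the 14 alternatives, among them leaving out control replicate 3 or any sorafenib replicate (largest adjusted p = 0.185).

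A list for the other large family of costimulatory receptors, the immunoglobulin superfamily, had 9 tested genes, of which 6 fell and 2 rose. Its median log2 fold change was -0.36. The list also holds Cd6, called lower, which belongs to the scavenger receptor cysteine-rich family instead. Of all tested genes 9.43% were called lower and 8.51% higher. The number that fell was 4 without any 1 of the sorafenib replicates, where 5.04% to 5.89% of all tested genes were called lower. Cd28, the main costimulatory receptor of T cells, fell 1.46-fold, from 292 ± 0.733 to 199 ± 12.6 CPM (adjusted p = 0.000482 by edgeR). Slamf1 fell 1.58-fold and the adhesion receptor Cd2 1.5-fold, while Cd96 rose 1.77-fold and Cd84 1.34-fold. Cd84 missed the threshold without sorafenib replicate 1 (adjusted p = 0.0532 by edgeR) and on unfiltered FPKM (adjusted p = 0.0591 by limma). Each of these 5 folds was smaller than that of Tnfrsf8 or Tnfrsf9, a comparison for which no test was run.

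**Figure D4:**
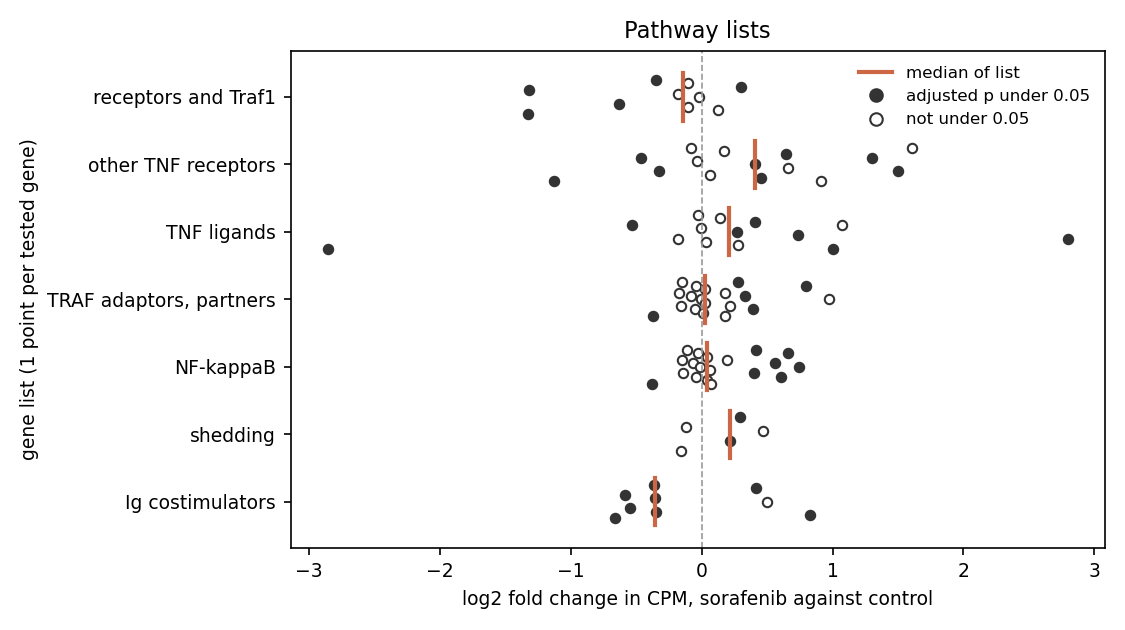
Log2 fold change in CPM (horizontal axis, sorafenib against control) of every tested gene of 7 lists, 1 point per gene, filled where the adjusted p was under 0.05, with a bar at each list's median. The 9 receptors with Traf1 and the immunoglobulin superfamily list, which also holds Cd6, have medians below 0, at -0.14 and -0.36. The other 5 lists have medians above 0.

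Cell type markers were checked in the same libraries, where 8.51% of all tested genes were called higher and 9.43% lower. The share called lower was 6.23% with total counts only and 5.04% to 16.8% with 1 library left out. Of 8 T cell markers in the table none stayed below 1 CPM, and 4 fell (Cd247, Cd3e, Cd3g and Lck), 2 with total counts only and 1 to 6 with 1 library left out. Their summed level was 2366 to 2485 CPM in control and 2124 to 2163 CPM in sorafenib libraries. Of 8 tested Th9 markers 2 were called higher and 0 lower, and without control replicate 2 these numbers were 4 and 1. The summed level of the 8 was 1766 to 1945 CPM in control and 1781 to 1805 CPM in sorafenib libraries. Spi1 was below 1 CPM in every library. Il9, the defining cytokine and 1 of the 8, was at 177 to 213 CPM in control and 253 to 283 CPM in sorafenib libraries. Markers of regulatory T cells, which are known to carry Tnfrsf18, Tnfrsf4, Tnfrsf1b and Tnfrsf9, moved both ways, with 3 higher (Foxp3, Nrp1 and Itgae) and 3 lower (Ikzf2, Lrrc32 and Gpr83) of 7 tested, of which Ikzf2 and Lrrc32 were not called in 9 and 5 of the 14 alternatives. Their summed level was 254 to 348 CPM in control and 249 to 262 CPM in sorafenib libraries, and Foxp3, which defines those cells, was at 11.03 to 14.6 and 22.7 to 27.5 CPM. Foxp3 and Tnfrsf1b were higher, and Tnfrsf9, Tnfrsf8 and Tnfrsf18 lower, in the same libraries. The part of regulatory T cells in these values was not tested.

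Markers of other cells summed to far lower levels than the T cell markers. Summed levels in control and sorafenib libraries were 8.71 to 10.2 and 10.06 to 12.3 CPM for CD8 T cells, 1.26 to 1.71 and 1.33 to 1.4 CPM for NK cells, and 7.99 to 11.8 and 13.4 to 14.1 CPM for myeloid cells. Of the 10 myeloid markers 8 were below 1 CPM in every library, and so were Cd8a, Klrb1c and the B cell marker Ms4a1. Neutrophil markers summed to 3.63 to 3.7 CPM in control and 0.204 to 0.567 CPM in sorafenib libraries. Those of mast cells summed to 16.7 to 18.04 and 18.2 to 19.4 CPM, and those of stroma and endothelium to 51.8 to 54.4 and 27.9 to 29.6 CPM. The part of any of these cells in the receptor values was not tested.

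Across the 14 alternatives the calls of Tnfrsf8, Tnfrsf9 and Traf1 held in all, with log2 fold changes of -1.34 to -1.23, -1.36 to -1.24 and -0.66 to -0.54. Those of Tnfrsf18 and Tnfrsf1b held in 11 and 12 of the 14.

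**Figure D5:**
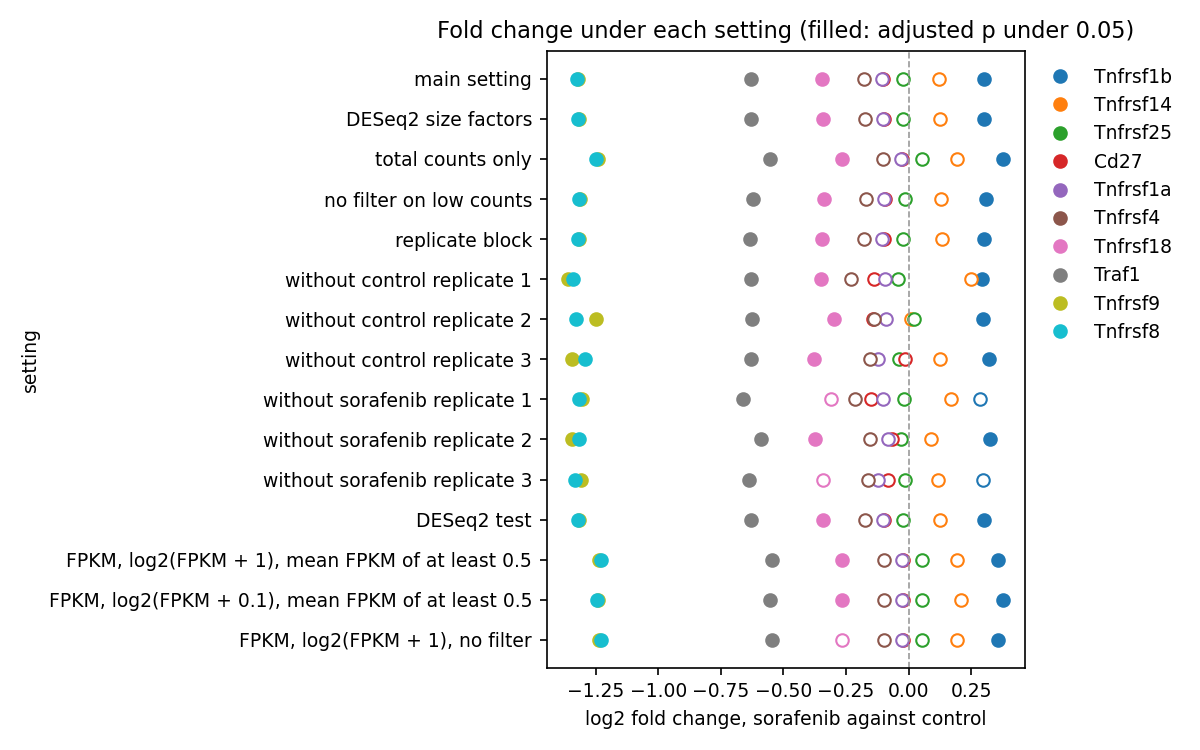
Log2 fold change (horizontal axis, sorafenib against control) of the 9 receptors and Traf1 under the main setting and 14 alternatives (rows), filled where the adjusted p was under 0.05. Tnfrsf8, Tnfrsf9 and Traf1 stay filled in every row, and Tnfrsf18 and Tnfrsf1b are open in 3 and 2 rows.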

How the data were processed

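RNA isolated with TRIzol was made into libraries with a VAHTS Universal V5 kit, per the labels' protocols. The authors deposited raw counts per gene and FPKM values. Fastp, HISAT2, HTSeq, R 3.2.0, DESeq2 and build GRCm39 are named per the submitters' processing notes; their roles, the annotation, the strand setting and filters are not stated there. The deposited FPKM equalled counts scaled by column total and 1 length per gene.

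Groups were taken from the sample titles. Counts were filtered with filterByExpr, scaled with TMM and compared by edgeR 4.0.16 in R 4.3.3 (robust quasi-likelihood test on group alone, 4 residual degrees of freedom, common coefficient of variation 10.9%). The Benjamini-Hochberg adjustment ran over the 13255 tested genes, and an adjusted p under 0.05 made a call. Standard errors came from the F statistic and 95% intervals from the test's degrees of freedom. Log2 fold changes are sorafenib minus control. A count of 0 was read against a floor of 3 counts, 0.0766 to 0.0871 CPM, which covers counting error only. The fit was also run on data simulated from its own estimates of spread, with no library standing apart. Those runs therefore do not cover a library such as control replicate 2.

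The genes and lists were chosen with earlier results of these data known. All 10 genes are named, with up to 4 called genes of smallest p from each other pathway list. Ligands of the receptors, overlapping genes, markers and further genes of these lists, called or not, were named after their values were seen. Some called genes, and the counts of the death domain list, were left out of the text. Alternatives were DESeq2 size factors, total counts only, no filter, each library left out, a replicate block, the DESeq2 1.42.0 test, and limma 3.58.1 on log2(FPKM + 1) and log2(FPKM + 0.1) with a mean FPKM of at least 0.5, and on log2(FPKM + 1) without a filter. Counting the other lists under these alternatives was added after seeing the data.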

Additional observations from a re-analysis of the deposited data

How the results depend on the processing

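Of all tested genes 2378 were called, 1128 higher and 1250 lower; with 1 library left out the counts ranged from 1243 to 4325, from 559 to 2035 and from 684 to 2290. The highest count was without control replicate 2, and the lowest without sorafenib replicate 3. Lower calls numbered 826 with total counts only, 744 and 737 on filtered FPKM with pseudocounts of 1 and 0.1, and 520 on unfiltered FPKM, where 1423 genes were called in all. Among the 10 genes, 3 to 4 were called lower and 0 to 1 higher with 1 library left out; the 0 came from edgeR without sorafenib replicate 1 or 3, where Tnfrsf1b missed the threshold. Tnfrsf25, never called, had log2 fold changes of -0.042 to 0.022 with 1 library left out, 0.055 with total counts only, and on FPKM 0.052 with and without the filter and 0.055 with the smaller pseudocount; the cause was not tested. No other of the 10 changed sign. Whether the replicate numbers pair the libraries is not stated. Same-numbered libraries had correlations of deviations of -0.14, 0.11 and 0.13, and not every library correlated best with its own number. With 3 libraries per group such correlations cannot settle whether the numbers pair. With the replicate block 2139 genes were called, 1031 higher and 1108 lower, and no call among the 10 changed. Of the other genes named as called, Adam10, Rhbdf2, Cd40lg, Tank and Lck were not called with it (adjusted p = 0.088, 0.0502, 0.0692, 0.0583 and 0.104 by edgeR). Each of the 10 genes had at least 949 counts in every library; the spread between libraries was not split into counting error and other sources.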
